A study of Mus musculus with 3 samples.

Results

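The cells described here are the surface ectoderm of the mouse forelimb bud outside the apical ectodermal ridge, 863 of the 10659 cell barcodes that passed quality limits in 3 single-cell RNA libraries. Limb buds were taken at embryonic day 9.5. The control embryos were Esco2fl/fl, homozygous for a floxed allele of Esco2, a cohesin acetyltransferase that establishes sister chromatid cohesion, and carried no Cre. The mutant embryos were Esco2fl/fl;Prrx1-CreTg/0: the same floxed alleles with a Prrx1-Cre transgene, which is active in limb bud mesenchyme. Limb ectoderm is a different lineage from that mesenchyme. There was 1 control library and there were 2 mutant libraries, although the design states 3 replicates per genotype. The design describes a replicate as a pool of 3 samples with 2 limb buds each (6 buds), of which 2 samples were male and 1 was female. No label ties the libraries to separate litters. The p-values therefore rest on the variation among these libraries, which may be technical. The labels call the cells mesenchymal limb buds, and the suspension held epithelial, endothelial and blood cells as well.

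The limb bud is wrapped in a thin epithelium that signals to the mesenchyme beneath it. Along its rim lies the apical ridge, whose FGF8 keeps the bud growing out. Dorsal ectoderm makes WNT7A, which induces Lmx1b and dorsal pattern in the mesenchyme, while ventral ectoderm makes the homeodomain protein EN1, which keeps Wnt7a off on the ventral side. WNT ligands such as WNT6 and the epithelial transcription factor p63, encoded by Trp63, are found throughout the limb ectoderm.

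Cells were chosen by gene levels in counts per 10000 unique molecular identifiers (CP10K; a unique molecular identifier, UMI, counts 1 captured RNA molecule). A barcode needed at least 1000 genes and under 10% mitochondrial UMIs. Its summed Epcam, Trp63 and Wnt6 had to reach 2 CP10K. Its summed Cdh5, Pecam1 and Emcn (endothelium) had to stay under 1, its summed Prrx1, Tbx5 and Twist1 (limb mesenchyme) under 2, and its Fgf8 under 1. The apical ridge was gated in the same way with Fgf8 at 1 CP10K or more. These 10 genes chose the cells, so their values are given without a test. The rule found 273 cells in the control library, 305 in mutant library 1 and 285 in mutant library 2. Near the lower Epcam, Trp63 and Wnt6 limit, within 0.5 CP10K, 6, 5 and 19 cells lay just inside and 3, 3 and 15 just outside. The lowest score inside was 2.02 CP10K and the highest outside 1.98, both in mutant library 2. Near the Fgf8 limit, within 0.25 CP10K, 10, 6 and 6 cells lay just inside and 1, 9 and 1 just outside. Median depth was 40816, 30076 and 28955 UMIs per cell.

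The 16 genes of the surface ectoderm marker list summed to 3324, 3277 and 2982 raw CPM (UMIs of a gene per 1000000 UMIs of the class) in the control library, mutant library 1 and mutant library 2. Epcam, an epithelial adhesion molecule, stood at 517, 578 and 182 raw CPM in the same order. Wnt6 stood at 640, 661 and 205, and Trp63 at 403, 511 and 350. The same cells held Cdh1 (E-cadherin) at 103, 106 and 127 and the epithelial transcription factor Grhl2 at 148, 181 and 158. Fgf8 was at 4.85 to 10.3, against 961 to 1513 in the ridge, and Prrx1 at 3.01 to 11.4. Limb mesenchyme held Epcam at 0.712 to 1.02.

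**Figure D1:**
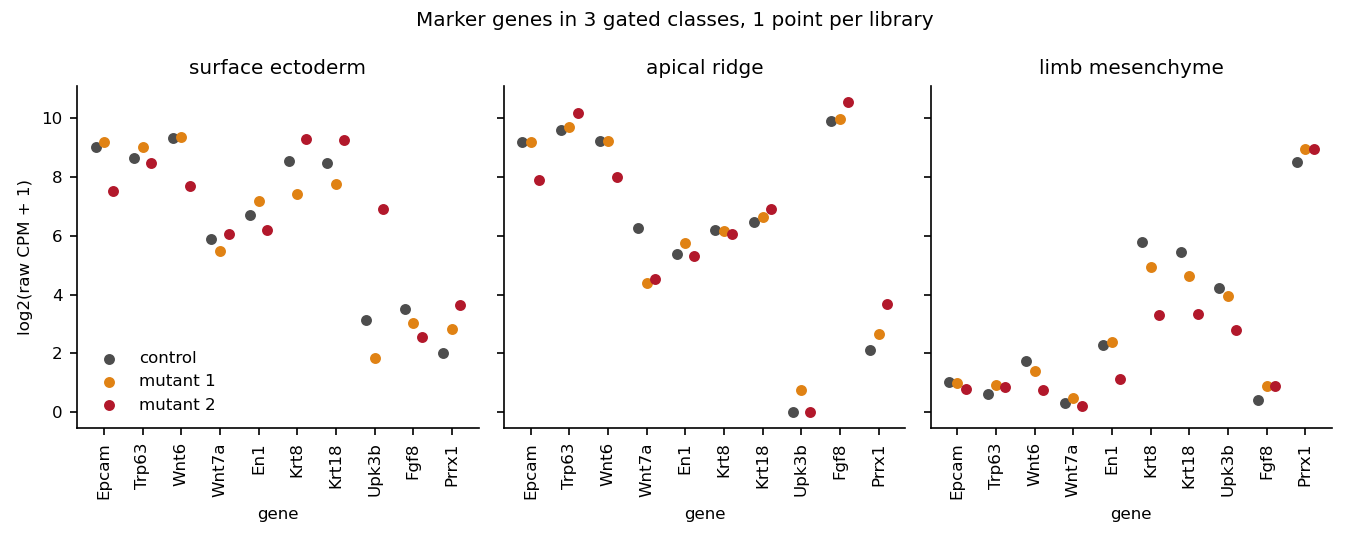
Levels of 10 marker genes as log2(raw CPM + 1) in surface ectoderm, apical ridge and limb mesenchyme, 1 point per library. Epcam and Wnt6 sit lower in mutant library 2 in both epithelial classes, and Upk3b is at 118 raw CPM in its surface ectoderm, against 7.79 in the control library and 2.59 in mutant library 1.

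Mutant library 2 stood apart in 2 ways. Epcam and Wnt6 were about as low in its ridge cells (237 and 256 raw CPM, against 582 and 601 in the control ridge). They also stayed low in its cells with Trp63 and without Upk3b, where Epcam was at 190 CPM (the same, but with the library sizes scaled by edgeR in each comparison), against 565 and 575 in the control library and mutant library 1. Second, cells with UMIs of Upk3b, a uroplakin also found in mesothelium, made up 30.9% of its gated cells (88 of 285), against 10.99% (30 of 273) in the control library and 5.90% (18 of 305) in mutant library 1. Trp63 was at 0 UMIs in 73, 46 and 14 cells in the same order. Krt8, a simple-epithelium keratin, was at 620 raw CPM, against 368 and 169. The coelomic lining marker list of 7 genes, which holds Upk3b itself, was summed without Krt19. It reached 233, 59.6 and 27.5 raw CPM in the same order, with Wt1 at 18.9, 11.3 and 7.76. These cells were given no cell type name. The gene comparisons were therefore repeated over cells with at least 1 Trp63 UMI and no Upk3b UMI, here called Trp63-positive, Upk3b-free cells. There were 210 in the control library, 273 in mutant library 1 and 184 in mutant library 2. This alternative was chosen after the data were seen.

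RNA of other classes was present too. The erythroid list summed to 1294, 7213 and 548 raw CPM in surface cells, in mutant library 1 more than the ectoderm list. Embryonic haemoglobin Hbb-y stood at 474, 2887 and 225 raw CPM in surface cells of the control library, mutant library 1 and mutant library 2. The nephric duct list, which shares Emx2 and Gata3 with the ectoderm, summed to 327, 276 and 456. Its gene Wfdc2 stood higher than Emx2, at 111 to 571 raw CPM over surface cells split by library, Wnt7a and En1. Emx2 stood at 1.36 to 91.9 in the same split. The flank mesoderm list summed to 189, 144 and 202, the endothelial list to 61.8, 45.2 and 139 and the limb mesenchyme list to 148 to 152. The macrophage list stayed at 2.31 to 4.40 in sum with C1qb at 0. The libraries shared 65, 117 and 66 cell barcodes in pairs, which touched 5 surface cells, and Scrublet, a doublet caller, marked 0, 2 and 2 surface cells.

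Surface ectoderm made up 9.02% of kept barcodes in the control library (95% exact binomial interval 8.02 to 10.1), 9.51% in mutant library 1 (8.51 to 10.6) and 6.44% in mutant library 2 (5.74 to 7.20). The control share lay between those of the mutant libraries. Intervals here cover counting error only. With 1 library against 2, an exact permutation test cannot give a p below 0.333, so no test of shares was made. Limb mesenchyme numbered 1199, 1289 and 2298 cells, so the lower share in mutant library 2 came with more mesenchymal cells, and fewer cells of one type cannot be told apart from more of another.

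Wnt7a and En1 split most surface cells into a dorsal class (Wnt7a at least 1 UMI, En1 at 0) and a ventral class (the reverse). Dorsal cells were 25.6% of surface cells in the control library (70 cells, interval 20.6 to 31.3), 27.9% in mutant library 1 (85 cells, 22.9 to 33.3) and 43.5% in mutant library 2 (124 cells, 37.7 to 49.5). Ventral cells were 34.4% (94 cells, 28.8 to 40.4), 45.2% (138 cells, 39.6 to 51.0) and 36.1% (103 cells, 30.6 to 42.0). Cells with both genes were 8.06%, 4.59% and 2.11%, and cells with neither 31.9%, 22.3% and 18.2%. The dorsal share was high in mutant library 2, where 59 of the 124 dorsal cells held Upk3b, against 4 of 70 and 3 of 85 elsewhere. Over Trp63-positive, Upk3b-free cells the dorsal share was 29.0%, 30.0% and 34.2%, and the ventral share 40.5%, 45.8% and 52.2%.

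These shares move with depth. Control cells with neither gene had a median of 4804 UMIs, against 55254 in dorsal and 49815 in ventral control cells. The gap was smaller in mutant library 1 (10251, against 32725 and 37239.5) and mutant library 2 (23749.5, against 30629.5 and 28378). Krt8 in cells with neither gene was at 957 (control), 240 (mutant library 1) and 1335 raw CPM (mutant library 2). It was at 408, 86.1 and 756 in dorsal and 170, 163 and 157 in ventral cells. Trp63 was at 190, 722 and 187, against 423, 521 and 276 in dorsal and 457, 495 and 512 in ventral cells. Depth and kind of cell were not separated. After each cell was thinned to 10000 UMIs, leaving out 69, 45 and 26 shallower cells, dorsal cells were 20.6%, 23.1% and 30.5%. Ventral cells were then 35.8%, 41.5% and 31.7%, and cells with both genes 0.980%, 0.385% and 0.772%. The thinned intervals of the dorsal share overlapped between the control library (15.3 to 26.8) and each mutant library (18.1 to 28.7 and 25.0 to 36.5). Erythroid cells, which should lack both genes, held Wnt7a in 0% to 0.167% and En1 in 0% to 0.167% of thinned cells, at unthinned median depths of 59994 to 97113 UMIs. The 0 of 390 control erythroid cells allow a share of up to 0.769%.

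**Figure D2:**
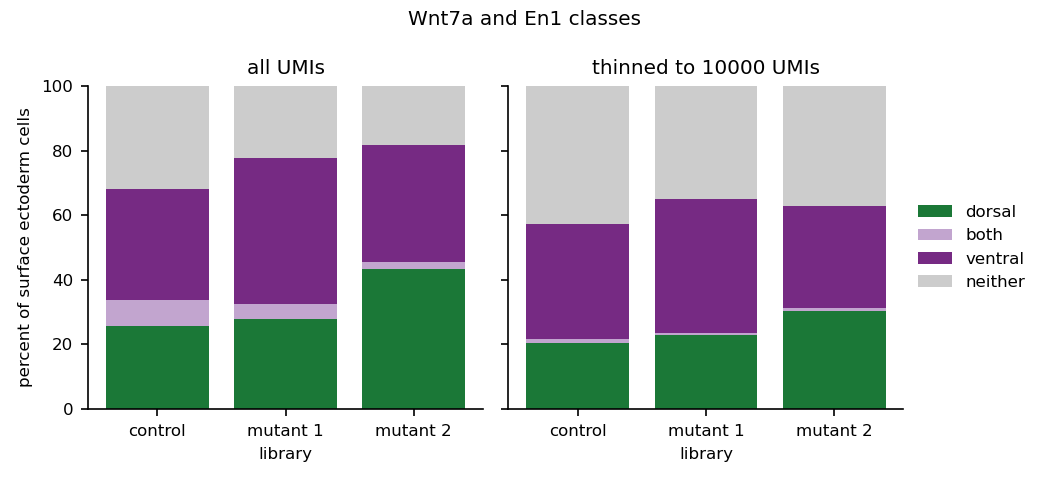
Percent of surface ectoderm cells that held Wnt7a only (dorsal), both genes, En1 only (ventral) or neither, with all UMIs and after thinning, 1 bar per library. The dorsal share is 25.6%, 27.9% and 43.5% with all UMIs and 20.6%, 23.1% and 30.5% after thinning.

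Dorsal and ventral ectoderm differed in a set of genes that included the transcription factor gene Emx2, the guidance cues Sema3a and Ntn1, and the LIM-domain gene Lmo7. Summed counts of the 3 dorsal classes were compared with those of the 3 ventral classes with the library as a block (edgeR's quasi-likelihood test, Benjamini-Hochberg adjustment over all genes). Of 10708 genes tested, leaving out Wnt7a, En1 and the gate genes, 196 passed an adjusted p of 0.05 (1.83%), 90 higher in dorsal and 106 higher in ventral cells (0.84% and 0.99%). Over Trp63-positive, Upk3b-free cells 374 were higher in dorsal and 482 in ventral cells, and 189 of the 196 were among them (3.52% and 4.53% of 10631 genes). Of the 43 called genes that rank or list membership chose for naming, 42 also passed in those cells in the same direction, the exception being Gabrp. Without mutant library 2 the counts were 144 and 196. Without the control library they fell to 2 and 0, and without mutant library 1 to 4 and 3, each with 1 residual degree of freedom.

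Emx2, a homeobox gene at chr19:59458372-59465357 (GRCm38), was at 63.1, 90.8 and 61.6 CPM in dorsal cells of the control library, mutant library 1 and mutant library 2. In ventral cells it was at 1.40, 2.89 and 2.18. The log2 difference was 5.06 (SE 0.17, adjusted p = 0.00207, edgeR). Its antisense neighbour Emx2os, which overlaps its start, was at 53.9 to 60.3 CPM in dorsal and 1.20 to 3.91 in ventral cells. The overlap is 264 bases (chr19:59458372-59458635). No source states whether strand was used in counting, so reads inside the overlap cannot be assigned to one of the genes. Emx2 passed the test under all 18 alternatives run, with log2 differences from 4.54 to 5.48.

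Secreted and guidance genes were among those higher dorsally. Sema3a, a repulsive guidance cue, was at 437, 896 and 575 CPM in dorsal and 105, 132 and 158 in ventral cells (log2 difference 2.23, SE 0.19, adjusted p = 0.00972). Ntn1, which encodes netrin 1, was at 22.1, 25.6 and 57.2 in dorsal and 1.25 to 1.60 in ventral cells. Every dorsal library lay above every ventral one for both genes, but they were named because this comparison called them, so this adds no support. Unc5b, a netrin receptor, went the other way, at 62.6, 48.5 and 39.5 in dorsal and 156, 121 and 122 in ventral cells (log2 difference -1.41, SE 0.10). In the list of signals to mesenchyme and vessels, 16 of 22 genes were tested: Sema3a, Kitl (log2 difference 1.72) and the chemokine Cxcl12 (1.75, at 6.33 to 14.9 CPM in dorsal cells) were higher dorsally. Tgfb1 was lower (-1.82). The list's median was 0.58, against 0.00 over all genes. In the stricter cells (Trp63-positive, Upk3b-free) 8 were higher and 3 lower, where 3.52% and 4.53% of all genes were called higher and lower.

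The other 8 dorsal genes of the ranking were Plcb1, Galnt18, Peg10, Emx2os, Eva1b, Ppp2r2c, Prkcb and Creb5. Plcb1, a phospholipase C, was at 134, 197 and 238 CPM in dorsal and 45.8, 59.0 and 66.4 in ventral cells. Ppp2r2c, a regulatory subunit of protein phosphatase 2A, had 227 dorsal UMIs and 1 ventral UMI, a ratio of rates of 266 (95% counting interval 47.2 to 10546). Peg10, an imprinted gene derived from a retrotransposon, was at 225 to 375 CPM dorsally and 61.4 to 135 ventrally. In the basement membrane list 2 of 26 tested genes passed, the collagen IV chains Col4a5 (log2 difference 0.89) and Col4a6 (1.40), both higher dorsally. Over Trp63-positive, Upk3b-free cells 5 of 25 were higher and 3 lower. The share of all genes called rose there too, from 0.84% to 3.52% higher and from 0.99% to 4.53% lower.

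Among the genes higher in ventral cells were Lmo7, Itga4, Cldn3 and Syt1. Lmo7, a LIM-domain protein of cell junctions, was at 278, 230 and 198 CPM in ventral and 69.8, 49.8 and 54.4 in dorsal cells (log2 difference -2.02, SE 0.10, adjusted p = 0.00667). Itga4, an integrin chain, was at 83.4, 106 and 103 in ventral and 11.8, 22.01 and 10.5 in dorsal cells. Cldn3, a tight junction claudin, was at 93.9 to 165 in ventral and 35.5 to 45.6 in dorsal cells. Syt1, better known as the calcium sensor of neuronal secretion, was at 77.0 to 127 and 5.02 to 8.44. None of these 4 genes overlapped between the classes, but low p in this same comparison chose them, so this adds no support. The others of the ranking were Fam189a2, Proser2, Pik3ip1, Kcnt2, Unc5b and Palld.

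BMP signalling acts in the ventral ectoderm upstream of En1. In the BMP list 20 of 24 genes were tested, and Smad6, Id3, Msx2 and Bambi, all known transcriptional targets of the pathway, were lower in dorsal cells; none was higher. In the stricter cells 6 were lower and Bmpr1b, a BMP receptor, was higher. For this and the other lists below, 4.53% of all genes were called lower and 3.52% higher in those cells. Bambi, a decoy receptor, was at 370, 319 and 248 CPM ventrally and 154, 98.3 and 73.8 dorsally (log2 difference -1.57, SE 0.12). Msx2 was at 260, 183 and 155 against 119, 65.1 and 77.5 (-1.20, SE 0.12). In the apical ridge list, which shares Bambi and Msx2, 6 of 17 tested genes were lower dorsally and none higher, with a median of -0.73. There were 10 lower in the stricter cells, and Fgf9 was higher. Besides Bambi and Msx2, the 6 were Dlx2, Rspo2, Cd44 and Wnt5a. Fgf8 was gated in both classes, so cells near the ridge may remain on either side; this was not tested. With only cells at 0 Fgf8 UMIs, 138 of the 196 calls remained. The cycle lists held no call (0 of 30 S-phase and 0 of 30 G2/M genes), while over Trp63-positive, Upk3b-free cells Rrm2 (S phase) and Cdk1 and Tacc3 (G2/M) were higher dorsally. Of the 29 keratin and junction genes Cldn3 alone was called, and over those cells 13 were lower dorsally and 1, Krt7, higher.

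Among 26 tested WNT receptor and feedback genes, Fzd1 (log2 difference -2.27), Tcf7l2 (-0.71) and the WNT agonist Rspo2 (-3.27) were lower dorsally, and Fzd2 was higher (0.67). With the stricter cells 5 were higher (Fzd2, Tcf7l1, Nkd1, Notum and Kremen2) and 4 lower (Fzd1, Tcf7l2, Dkk1 and Rspo2), so the balance of the list turned. Gabrp, a gene of the periderm list, was called higher dorsally but had 60.9 CPM in dorsal cells of mutant library 2 and 0.24 and 0 in the other libraries, so 1 library carried it. It fell below the filter over Trp63-positive, Upk3b-free cells.

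**Figure D3:**
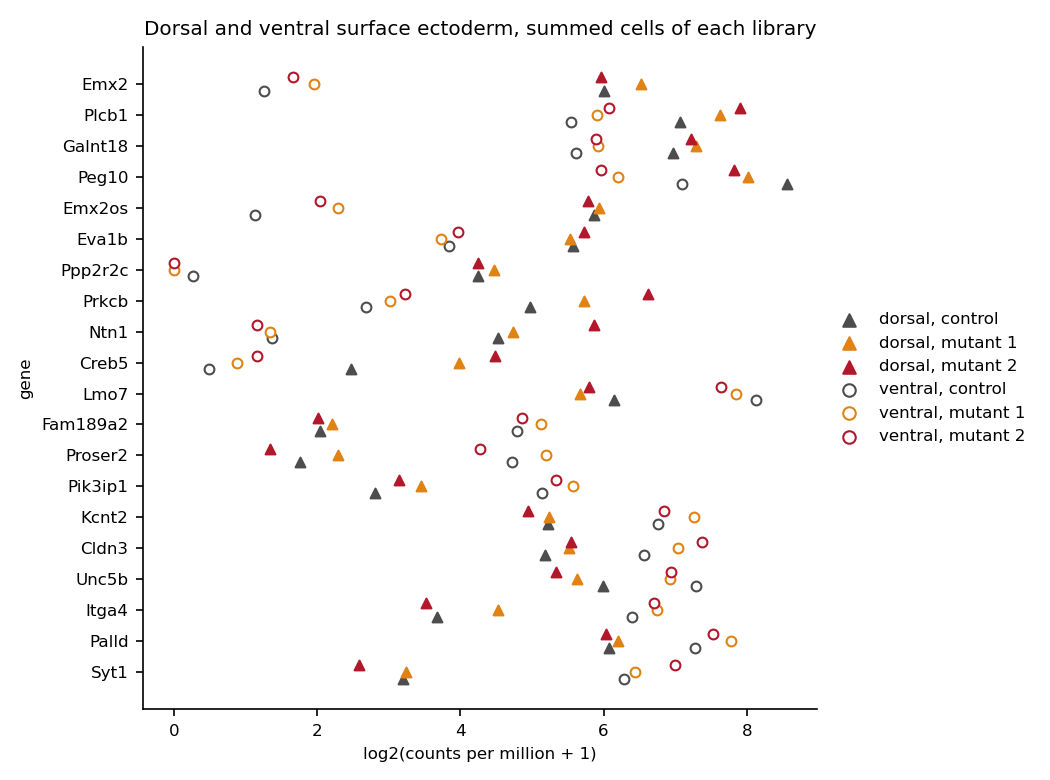
The 20 genes ranked first by p between dorsal (filled triangles) and ventral (open circles) surface ectoderm, as log2(CPM + 1) in each of the 3 libraries. Emx2 lies at 61.6 to 90.8 CPM dorsally and 1.40 to 2.89 ventrally, and Lmo7 at 49.8 to 69.8 and 198 to 278.

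The mutant libraries were compared with the control library over all surface cells, which asks how ectoderm differs between embryos with and without Prrx1-Cre. No gene passed the test among 10749 (0.0% called; edgeR, lowest adjusted p = 0.993), and 294 had an unadjusted p under 0.05. DESeq2 called 5 higher and 2 lower. Over Trp63-positive, Upk3b-free cells edgeR again called 0, with 640 genes at an unadjusted p under 0.05. The fit has 1 residual degree of freedom. A change of modest size would be missed, and 0 calls do not show that the cells were alike.

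Esco2 itself was at 30.7, 29.6 and 34.4 CPM in surface cells of the control library, mutant library 1 and mutant library 2, with a log2 difference of 0.06 (SE 0.21). In limb mesenchyme it was at 32.2, 21.9 and 22.3 (log2 difference -0.54, SE 0.27, adjusted p = 0.868). Whether the 3′ tags fall in the deleted part is not given, so the level checks the deletion only in part. The Cre transcript, counted as a feature named CRE, had a UMI in 0 of 273, 0 of 305 and 1 of 285 surface cells. In mesenchyme it had one in 0 of 1199, 62 of 1289 and 128 of 2298 cells. The 0 of 305 allows a share of surface cells of up to 0.984%. Of the 17 cohesin genes none was called, with a median log2 difference of 0.06, against 0.02 over all genes.

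The genes of lowest p are given as values, since none was called. Pax3 was at 1.91 CPM in the control library and 36.8 and 84.3 in the mutant libraries, and Lbx1 at 0.0796 (1 UMI), 12.8 and 14.1. Both are homeobox transcription factors of limb muscle precursors, and Pax3 is also expressed in neural crest. DESeq2 called both (adjusted p = 4.1e-11 and 0.00738). Cells with at least 1 CP10K of Pax3 and Lbx1 numbered 3 of 273, 11 of 305 and 16 of 285. The myogenic list of 7 genes summed to 88.9 raw CPM in the control library and 152 to 172 in the mutant libraries, most of it Met, with Myod1 at 0 in all 3. The neural crest and glia list summed to 37.9 in the control library and 56.9 and 67.9 in the mutant libraries. Pax3 stood at 2.32, 95.3 and 59.99 CPM in the ridge (log2 difference 5.06, adjusted p = 0.0439, edgeR, where 0.0284% of genes were called and 0.00948% called higher) and 1.80, 9.76 and 17.5 in mesenchyme, with the same direction in all 3 classes. The part of such cells or of their free RNA in the difference was not tested.

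Xist, Eif3j2 and Hist1h2ap were also called by DESeq2 in surface cells, so its calls were not confined to Pax3 and Lbx1. They differed in the same direction in ridge, mesenchyme, endothelium and erythroid cells too. Xist, the RNA that silences the inactive X, was at 114 CPM in the control library and 15.0 and 19.1 in the mutant libraries. In mesenchyme it was at 153, 12.5 and 8.49. The Y-linked Uty was at 120, 158 and 133 raw CPM in the surface cells. Eif3j2, a near copy of Eif3j1, was at 11.7, 48.0 and 53.9 CPM, and at 13.2, 73.3 and 80.6 in mesenchyme. The histone gene Hist1h2ap was at 411, 143 and 124, and at 503, 178 and 158 in erythroid cells. Rpl27, which encodes a ribosomal protein, was at 750, 375 and 418. Eif3j2, Hist1h2ap and Rpl27 have near-identical copies, so their counts are uncertain. By the design every replicate held 2 male samples and 1 female sample, yet Xist differed between the libraries. Whether the libraries had that make-up was not tested. Actual sex make-up and library were not separated from genotype and cannot be told apart from it here.

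Dkk1, a secreted WNT antagonist, was at 40.2 CPM in the control library and 15.3 and 12.4 in the mutant libraries (log2 difference -1.54, SE 0.23, unadjusted p = 0.00285). It was at 30.3, 20.8 and 19.1 in mesenchyme. From the gene lists, not from the lowest p, Dlx5, a homeobox gene of the ridge, was at 38.7, 19.4 and 19.1 (-1.01, SE 0.19), and Tcf7, a WNT pathway transcription factor, at 43.2, 23.7 and 21.3 (-0.94, SE 0.20). Both mutant libraries lay below the control library for all 3 genes, which adds no support. The naming rule required it of Dkk1, and Dlx5 and Tcf7 came from lists chosen with earlier results of these data known. None of the 3 passed the adjusted test with edgeR or DESeq2. In the apical ridge list 2 of 17 tested genes had positive differences, with a median of -0.34. The remaining genes of lowest p were Ebf1, at 6.13, 25.3 and 28.0 CPM, and the protocadherin-like gene Fat3, at 81.7, 169 and 163.

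In the other lists no member was called. Medians were 0.06 for 29 keratin and junction genes, 0.10 for 25 basement membrane genes, 0.02 for 26 WNT receptor and feedback genes, -0.22 for 20 BMP genes and -0.09 for 13 FGF genes. They were 0.01 for 7 WNT ligand genes, 0.23 for 7 Notch genes, -0.08 for 30 S-phase genes, 0.01 for 30 G2/M genes and -0.09 for 17 signalling genes. The periderm list had a median of 0.96 over 9 genes, and of -0.06 over 6 genes in Trp63-positive, Upk3b-free cells. Its genes Evpl (2.8, 1.8 and 38.4 CPM) and Grhl3 (7.1, 10.8 and 34.8) were high in mutant library 2 only. Wnt7a was at 59.5, 44.0 and 65.4 CPM and En1 at 105, 144 and 72.5, and the control library lay between the mutant libraries for both.

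The p53 target genes were compared between the ectoderm and the mesenchyme beneath it. p53 is activated by DNA damage and chromosome missegregation, and induces the cell cycle inhibitor Cdkn1a (p21) among many targets. Numbers of calls cannot be compared between the 2 classes, although both fits had 1 residual degree of freedom. The prior degrees of freedom, edgeR's weight on spread shared by all genes, were infinite in mesenchyme and 2.94 in surface ectoderm. The surface fit was therefore less able to call a gene. In limb mesenchyme 10 of 29 tested p53 target genes rose in the mutant libraries and none fell (edgeR, median log2 difference 0.85), against 0.814% of 10194 genes called higher and 1.64% called in all. In surface ectoderm none of 29 was called, with a median of -0.11 and 12 positive.

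Cdkn1a was at 1.55 CPM in control mesenchyme and 58.2 and 64.1 in mutant mesenchyme. In surface ectoderm it was at 34.9 CPM in the control library and 38.2 and 25.9 in the mutant libraries. The control ectoderm thus already lay within the range of the mutant ectoderm, and well above control mesenchyme. The difference of the mutant effects (surface minus mesenchyme) was -5.44 on the log2 scale (SE 0.37), with an unadjusted p of 1.2e-05 and an adjusted p of 0.124 with edgeR. DESeq2 called it, as did edgeR with Trp63-positive, Upk3b-free ectoderm (-5.25). Each of these calls leans on spread shared across genes, since 1 residual degree of freedom is left.

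After thinning to 10000 UMIs, Cdkn1a was found in 18.1%, 25.4% and 18.5% of surface cells of the control library, mutant library 1 and mutant library 2. The shares were 1.04%, 12.1% and 11.7% in mesenchyme and 3.59%, 1.17% and 2.04% in erythroid cells. Whether erythroid cells lack Cdkn1a was not tested, and the control mesenchyme share lay below the control erythroid share. The surface shares lay above the erythroid shares in all 3 libraries. Unthinned shares were 39.6%, 45.9% and 28.4% in surface cells.

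Other targets had differences of the same sign, none called in the fit over all surface cells. Ccng1 was at 8.19, 41.4 and 41.6 CPM in mesenchyme and 27.1, 19.3 and 15.8 in surface ectoderm (difference of effects -2.97, SE 0.27). The death receptor gene Eda2r was at 1.65, 19.7 and 16.4 against 6.97, 7.37 and 4.60 (-3.70, SE 0.40), and Ddit4l at 0.399, 16.4 and 15.4 against 7.13, 7.37 and 3.87 (-5.70, SE 0.54). Mdm2, the feedback inhibitor of p53, was at 44.7, 86.5 and 82.6 against 57.0, 57.2 and 51.0 (-0.995, SE 0.19). No gene passed this test in edgeR (0.0% of 10676 called, 327 at an unadjusted p under 0.05), while DESeq2 called 4 higher and 13 lower. Over Trp63-positive, Upk3b-free ectoderm, edgeR called 199 and 101, and 12 of the 29 p53 targets were among those lower, against 0.95% of 10634 genes. That fit too has 1 residual degree of freedom, so its calls lean on spread shared across genes. The remaining genes of lowest p over all surface cells were Anks1b, lower, and Hoxa11, Hoxa10, Eps8l2, Sema3e and Ebf1, higher. Hoxa10, a limb patterning gene, was at 0, 3.82 and 10.5 CPM in surface ectoderm and 16.7, 32.4 and 55.8 in mesenchyme.

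**Figure D4:**
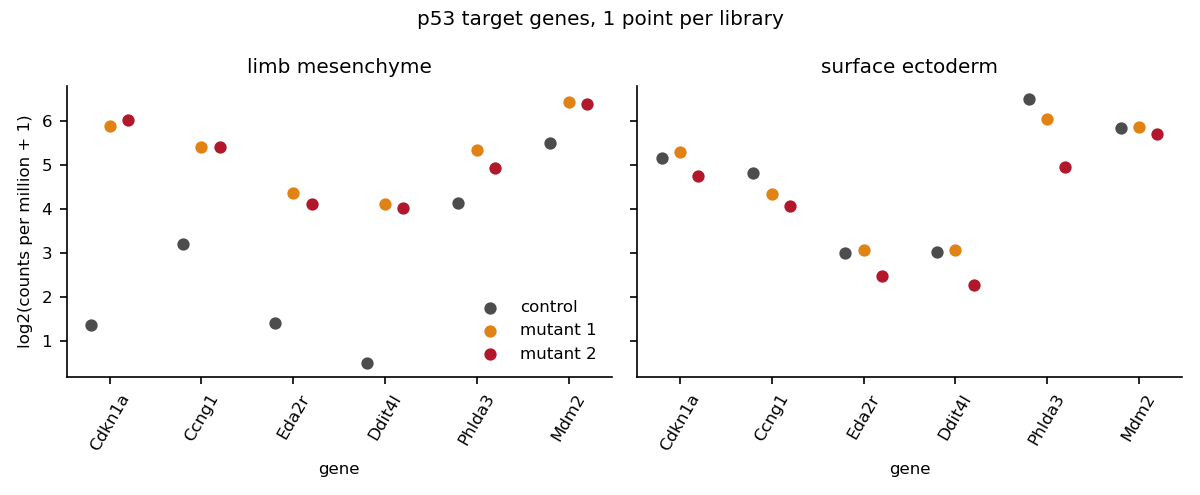
The p53 target genes Cdkn1a, Ccng1, Eda2r, Ddit4l, Phlda3 and Mdm2 as log2(CPM + 1) in limb mesenchyme and surface ectoderm, 1 point per library. Cdkn1a is at 1.55 CPM in control and 58.2 and 64.1 in mutant mesenchyme, and at 25.9 to 38.2 in surface ectoderm of all 3 libraries.

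The mutant difference was also compared between dorsal and ventral cells. No gene passed with edgeR (0.0% of 10708; 121 at an unadjusted p under 0.05), and DESeq2 called 0 higher and 5 lower. Over Trp63-positive, Upk3b-free cells 18 and 23 passed. The gene of lowest p was Xist, at 187, 13.8 and 9.35 CPM in ventral and 38.1, 15.7 and 14.4 in dorsal cells. The control library thus had unequal Xist between its sides, and the sex of single cells was not separated. Ebf1, Gfra1, Cped1 and Tenm2 followed with positive differences, and Plcl1, Slc25a21 and Kcnb2 with negative ones.

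Surface ectoderm outside the ridge carried lower levels of WNT feedback genes than the ridge, and higher levels of simple-epithelium keratins. The classes, set apart by Fgf8, were compared within the 3 libraries as dorsal and ventral cells were. Of 10714 genes, 531 were higher in surface ectoderm (4.96%) and 484 lower (4.52%), 9.47% in all. Over Trp63-positive, Upk3b-free cells the counts were 503 and 556, and 860 of the 1015 calls were shared (4.73% and 5.23% of 10636 genes). Without mutant library 2 they were 339 and 352, and without the library block 142 and 189.

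WNT feedback genes are switched on by WNT signalling itself. Of the WNT receptor and feedback list, 18 of 29 tested genes were lower in surface ectoderm and 2 higher, with a median of -0.99, against 0.01 over all genes. The stricter cells had 19 lower and 2 higher, with a median of -0.86. Axin2, a general feedback target, was at 41.8, 29.2 and 27.5 CPM in surface ectoderm and 92.6, 84.8 and 117 in the ridge (log2 difference -1.57, SE 0.17, adjusted p = 0.00193). The secreted WNT deacylase Notum was at 25.2, 13.4 and 5.69 against 69.0, 53.8 and 85.9, and the antagonist Dkk4 at 1.75, 0.275 and 0.107 against 23.1, 1.35 and 5.37. Rspo2, an R-spondin that strengthens WNT signals, was at 8.81, 16.1 and 6.76 against 70.4, 415 and 614 (-4.71, SE 0.56). The 2 higher genes were Sostdc1, a secreted antagonist of BMP and WNT (1.46), and the transcription factor Tcf7l1 (0.44). Wnt4 (0.69) and Wnt7b (1.61) were higher and Wnt5a (-1.97), Wnt11 (-1.97) and the WNT carrier Wls (-0.61) lower.

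Sp5, a zinc-finger gene and direct WNT target, was at 2.94, 2.85 and 2.47 CPM in surface ectoderm and 22.7, 9.14 and 7.52 in the ridge (log2 difference -2.17, SE 0.33). Its promoter is shown because it was the only 1 of 11 such genes with a RefSeq promoter window (GRCm38.p6, 250 bases before to 50 after the start) whose window held the TCF/LEF motif CTTTGAA or CTTTGAT on either strand. Of the 18 lower genes of the WNT receptor and feedback list, 11 had a window. Of their 17 windows 1 held the motif, and across all 32851 windows 8.65% held one. The 250 bases before the start, chr2:70474673-70474922, plus strand, have the motif in capitals, beginning 104 bases before the start:
Sp5: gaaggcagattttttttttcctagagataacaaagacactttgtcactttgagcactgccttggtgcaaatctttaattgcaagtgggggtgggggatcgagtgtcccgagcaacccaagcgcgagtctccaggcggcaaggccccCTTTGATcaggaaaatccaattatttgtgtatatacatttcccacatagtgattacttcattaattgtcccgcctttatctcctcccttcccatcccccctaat
A match describes these letters and is not a shown binding site.

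**Figure D5:**
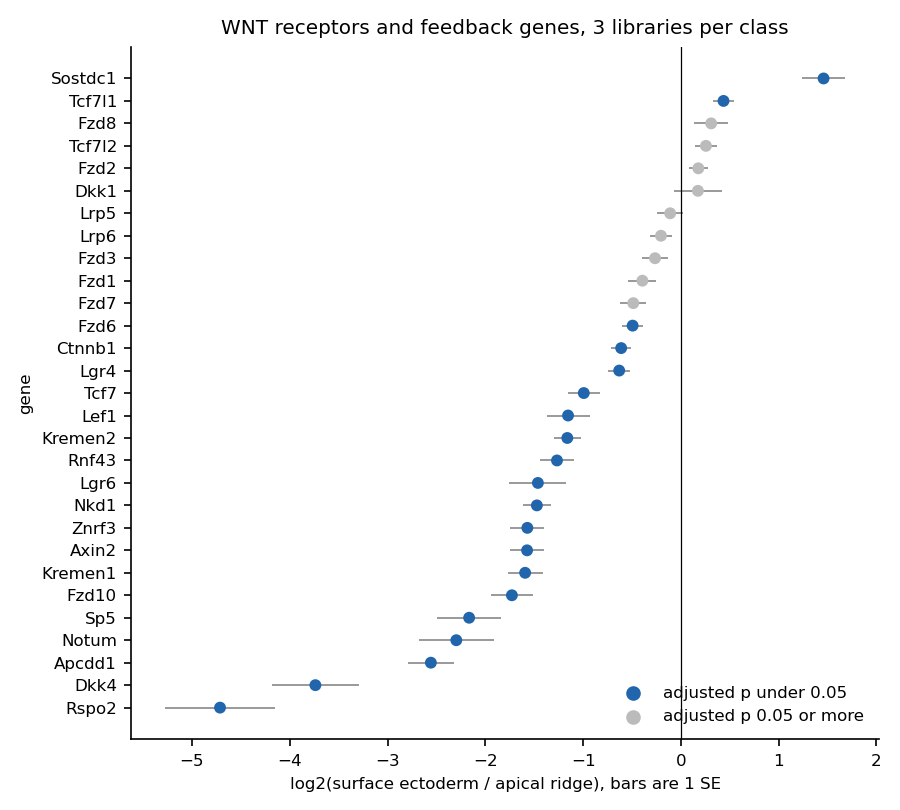
Log2 difference between surface ectoderm and apical ridge for the 29 tested WNT receptor and feedback genes, bars 1 SE, blue where adjusted p is under 0.05. Of these 18 lie below 0 in blue, from Fzd6 to Rspo2 at -4.71, and Sostdc1 and Tcf7l1 lie above 0.

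Ridge genes that the gate did not use separated the classes too. In the apical ridge list 13 of 18 tested genes were lower in surface ectoderm and none higher, with a median of -1.32. Bmp4 was at 45.5, 37.3 and 34.7 CPM against 223, 129 and 348 in the ridge, and Dlx5 at 38.6, 19.3 and 19.1 against 87.5, 87.8 and 72.7. Bmp2 (-2.01) and Bmp7 (-0.78) were lower as well, while the BMP targets Id1 (0.58) and Id3 (0.98) were higher. Edar, the receptor for ectodysplasin, was at 25.8, 27.0 and 25.0 against 103, 105 and 163, and Egfr at 69.1, 96.7 and 92.5 against 235, 421 and 479. Adamts20, a secreted metalloprotease, was at 2.86, 3.40 and 2.90 against 35.4, 41.5 and 75.2 (-3.96, SE 0.23). The other lower genes of the ranking were Pcdh19, Kirrel3, Tubb3, Npm3, Grik4, Ccdc3 and Tiam2.

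Of the keratin and junction list 11 of 29 genes were higher in surface ectoderm and 2 lower. Krt8 was at 379, 168 and 618 CPM against 74.3, 71.4 and 65.9, with a log2 difference of 2.25 (SE 0.32), and of 0.98 in Trp63-positive, Upk3b-free cells. Krt18 was 1.82 higher (0.79 in those cells) and Krt7 2.13 higher (1.73). Krt5, the keratin of basal epidermis, was lower at 20.8, 27.7 and 27.2 against 40.4, 70.9 and 108 (-1.44, SE 0.19). Cldn3 was at 64.5, 98.6 and 91.9 against 21.7, 30.3 and 38.0. The transcription factor genes Tfap2b (2.75), Gata3 (1.09) and Grhl3 (1.97) were higher, Grhl3 no longer passing in Trp63-positive, Upk3b-free cells (1.10, adjusted p = 0.083).

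Several first-ranked surface genes were not found at a testable level in Trp63-positive, Upk3b-free cells. Tac2, a tachykinin precursor, was at 34.7, 10.7 and 216 CPM, with 2569 UMIs in surface ectoderm and 2 in the ridge. The transcription factor gene Hand1 was at 70.9, 8.81 and 77.2, Lum at 48.7, 0.0918 and 15.1, and Cryab at 39.0, 4.96 and 104. All 4 fell below the filter there, so their difference rests on the other gated cells. Lum was higher in the control library than in mutant library 2, unlike Upk3b, and which of the Trp63 and Upk3b limits removed them was not tested. Dpf3, a chromatin remodeller subunit, did not: it was at 91.0, 71.9 and 113 against 6.09 to 7.82 in the ridge, with a log2 difference of 3.68 (SE 0.16), and of 3.41 in the stricter cells. Kcnh7, Pcgf5, Cldn3 and Abtb2 were also in the ranking.

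The mutant difference also differed between surface ectoderm and ridge for 23 of 10714 genes (0.215%; edgeR interaction test), 7 more positive (0.0653%) and 16 more negative (0.149%) in surface ectoderm. Wnt7a, the dorsalizing ligand, was among the 7: surface ectoderm had 59.3, 43.8 and 65.4 CPM, and the ridge 76.9, 20.5 and 21.8 (difference of effects 1.70, SE 0.31, adjusted p = 0.022 with edgeR). DESeq2 called none of the 7, with an adjusted p of 0.99991 for Wnt7a. Its surface levels overlapped between the genotypes, and its control ridge level lay above both mutant ridge levels.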

How the data were processed

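Each library was made from thawed limb bud cells released with trypsin and loaded for 3′ single-cell RNA sequencing, per the labels' protocols. The authors deposited UMI counts per gene and barcode; the submitters' processing notes name Cell Ranger 7.0.0, Seurat 4.0.0 and the mm10 build. Totals were 202581488, 178159788 and 225032823 UMIs over 6527, 7219 and 8755 barcodes. Counts of gated cells were summed per library and class. A gene entered a fit at 5 CPM or more on average and was tested with edgeR 4.0.16 (TMM scaling, quasi-likelihood test, Benjamini-Hochberg adjustment), mutant against control without a block and classes within libraries with the library as a block. DESeq2 1.42.0 was an alternative. SE is the log2 difference divided by the square root of F. Gate genes were fitted but not counted. Doublets were called with Scrublet in scanpy 1.11.5 and kept unless stated. The members and the gene lists were chosen with earlier results of these data known. Named genes were the 10 called genes of lowest p in each direction (5 where none was called), taking no gate, haemoglobin, mitochondrial, Gm-numbered or Rik gene and, for mutant against control, only genes of the same sign in both mutant libraries, plus list members. Limits on Trp63 and Upk3b and the removal of shared barcodes were alternatives chosen after seeing the data. Share intervals are exact binomial (Clopper-Pearson). Some of the fits were tested on simulated data. The simulated spread between libraries was smaller than that estimated for mutant against control (edgeR common dispersion 0.0545). The simulation therefore cannot show which changes that fit would miss. Gene positions are from GENCODE vM21. Some genes that the naming rule selects are not reported here.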

Additional observations from a re-analysis of the deposited data

Results flagged for a closer look

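The mutant difference itself differed between surface ectoderm and the apical ridge for 23 of 10714 genes (0.215%; edgeR interaction test, adjusted p under 0.05), 7 higher and 16 lower in surface ectoderm. DESeq2 called 0 higher and 4 lower, and edgeR called 69 and 102 over cells with Trp63 and without Upk3b, with 19 of the 23 among them. Each value here is the mutant effect in surface ectoderm minus that in the ridge, on the log2 scale.

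Wnt7a was at 76.9 CPM in the control ridge and 20.5 and 21.8 in the mutant ridge, but at 59.3, 43.8 and 65.4 in surface ectoderm, a difference of 1.70 (SE 0.31, adjusted p = 0.022). Ngfr differed by 3.07, with ridge levels of 19.2, 2.71 and 1.07 CPM and surface levels of 13.7 to 15.8. Gria3 differed by 1.71, Msrb3 by 2.26, Tex21 by 4.04 and Car4 by 2.72. Sost, fitted at 8.82, had no UMI in either mutant ridge class and 1.63 CPM in the control ridge, so its fitted size has no bound.

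More negative in surface ectoderm were Zeb2 (-3.64, ridge at 2.61, 44.8 and 29.0 CPM), Zeb1 (-3.11), Pdgfra (-2.94), Cdh6 (-2.51), Dlgap1 (-3.06), Vwde (-3.31) and Lrrc4c (-3.95). The limb mesenchyme list, which holds Pdgfra, summed to 109, 197 and 346 raw CPM in the ridge of the control library, mutant library 1 and mutant library 2. In surface cells it summed to 151, 152 and 148. The part of mesenchymal RNA among ridge cells in these differences was not tested. Dkk2 (-5.96), Col1a1 (-3.26) and Col3a1 (-3.39) were highest in the surface cells of the control library, at 28.1, 101 and 48.0 CPM. Over cells with Trp63 and without Upk3b, Zeb1 (-0.87), Col1a1 (-0.70) and Dkk2 (-0.35) no longer passed, and Col3a1 fell below the filter.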

How the results depend on the processing

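The 1 control library is the main limit: mutant against control has 1 residual degree of freedom, and leaving out a mutant library leaves a value with no test. No paired analysis was possible because no label pairs the control library with a mutant library. Within-library comparisons had the library as a block.

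For mutant against control, genes called higher and lower were 0 and 0, and became 5 and 2 with DESeq2, 1 and 1 with no filter on low counts, and 29 and 10 with 1 spread shared by all genes. Cdkn1a, at -0.11, turned to 0.050 with a score of at least 4, 0.023 in Trp63-positive, Upk3b-free cells, 0.45 after thinning and -0.43 to 0.13 when each mutant library was left out. Mdm2 turned to 0.067 after thinning and ranged from -0.16 to 0.0030 without each mutant library, and Ddit4l from -0.88 to 0.047. None of these was called.

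For dorsal against ventral, the 90 higher and 106 lower became 146 and 168 (DESeq2), 202 and 220 (score of at least 4), 374 and 482 (Trp63-positive, Upk3b-free), 164 and 194 (at least 2 UMIs of Wnt7a or En1), 278 and 285 (no filter), 422 and 340 (1 spread), 52 and 67 (no replicate block) and 144 higher after thinning. Leaving out each library gave 2 to 144 and 0 to 196. For surface against ridge, the 531 and 484 became 1219 and 816 (no filter), 142 and 189 (no replicate block) and 830 higher (1 spread). Leaving out each library gave 339 to 619 and 352 to 537.

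The difference of mutant effects between dorsal and ventral cells had 0 and 0 calls, then 5 lower with DESeq2, 18 and 23 in Trp63-positive, Upk3b-free cells and 1 higher after thinning. Against mesenchyme 0 and 0 became 4 and 13 with DESeq2, 199 and 101 in those cells and 3 lower after thinning. Against the ridge 7 and 16 became 0 and 4 with DESeq2, 69 and 102 in those cells and 4 and 10 after thinning. These interactions have no test without a mutant library, since no residual degree of freedom is left.

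The share of surface ectoderm became 7.47% (control) and 8.14% (mutant library 1) with Fgf8 at 0 UMIs, 6.94%, 8.51% and 4.16% in Trp63-positive, Upk3b-free cells, and in mutant library 2 4.75% with a score of at least 4 and 5.33% with a mesenchyme score under 0.5. The dorsal share of mutant library 2 became 34.2% in Trp63-positive, Upk3b-free cells and 30.5% after thinning. The ventral share became 27.4% (control, at least 500 genes), 40.5% (control) and 52.2% (mutant library 2) in Trp63-positive, Upk3b-free cells, 51.1% (mutant library 1, mitochondrial share under 5%) and 44.3% (mutant library 2, score of at least 4). The cause of these shifts was not tested.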

Other observations

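Further lists were compared between surface ectoderm and the ridge, where 4.96% of all genes were called higher and 4.52% lower. In the glycolysis and hypoxia list 2 of 22 genes were higher and 1, P4ha1 (-0.58, adjusted p = 0.0146, edgeR), lower. The glucose transporter genes Slc2a1 (421, 252 and 523 CPM in surface ectoderm of the control library, mutant library 1 and mutant library 2, against 175, 148 and 72.0 in the ridge) and Slc2a3 (651, 476 and 998 against 309, 194 and 146) were higher in surface ectoderm. Over cells with Trp63 and without Upk3b, the log2 difference of Slc2a1 was 0.25 and no longer passed, and that of Slc2a3 was 0.81 and passed. Hes1, a Notch target, was at 78.3, 87.0 and 48.0 CPM against 33.9, 44.7 and 35.4, and Notch2 and Notch3 were higher too, 3 of 7 tested Notch genes. All 30 S-phase genes had positive differences with a median of 0.26, and 2, Mcm6 (0.50) and Cdt1 (0.59), passed the test, a share near that of all genes. Of the 29 p53 target genes, Cdkn1a, Trp53inp1, Phlda3, Plk2 and Rb1 were lower in surface ectoderm than in the ridge.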
